A study of Mus musculus with 6 samples.

Results

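The 10 genes described here, Ifit1, Ifit2, Ifit3, Rsad2, Cmpk2, Bst2, Rtp4, Mx1, Mx2 and Xaf1, are classical antiviral effectors of the interferon response. They were taken by name. All probe sets whose only gene symbol in the platform annotation is 1 of these names were used, which gave 15 of the 34945 probe sets with 1 symbol, and 10 of 18193 genes. The tested samples were affected alopecic skin from 3 C3H/HeJ mice with alopecia areata, an autoimmune hair loss that arises spontaneously in this inbred strain. They were set against skin from 3 unaffected C3H/HeJ mice. Each mouse gave total RNA for 1 array, no treatment is named in the labels, and the sources used here give no age, sex or body site. Values are log2 RMA values, in which background was corrected, arrays were normalized to each other and the probes of a probe set were summarised, so 1 unit is a doubling of the signal. Differences are alopecic minus unaffected, and "rose" is used where limma's adjusted p over all 18193 genes was under 0.05.

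Interferons act on cells by binding a receptor, which activates kinases of the JAK family and transcription factors of the STAT and IRF families. Type I and type III interferons act through the complex ISGF3, which holds STAT2 and IRF9 and binds the interferon-stimulated response element (ISRE) in promoters. Interferon gamma acts mainly through the gamma-activated site (GAS), and many genes respond to both. The effectors act at different steps of a virus's life, from RNA recognition to the release of particles. In alopecia areata lymphocytes that release interferon gamma gather around the growing hair follicle.

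Promoter sequence was looked up for the members because the ISRE is the element through which this class of genes is known to be switched on. RefSeq promoter windows of the GRCm38.p6 build, from 250 bases before to 50 bases after a transcript start, were found for 7 of the 10 members. Rtp4, Mx1 and Mx2 were not matched. The core of the ISRE, GAAANNGAAA on either strand, occurred in the windows of Ifit1, Ifit3, Rsad2 and Bst2, 4 of these 7. It occurred in 3.44% of all 32851 windows, and 3.99% of the 27025 genes with a window held it. The stretches below show these cores, in capitals, with 30 bases on each side, 5′ to 3′ on the strand of the gene.
Ifit1: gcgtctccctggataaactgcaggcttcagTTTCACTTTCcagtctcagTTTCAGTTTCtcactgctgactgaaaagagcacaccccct
Ifit3: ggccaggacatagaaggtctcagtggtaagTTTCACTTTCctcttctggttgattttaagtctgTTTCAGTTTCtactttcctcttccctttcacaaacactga
Rsad2: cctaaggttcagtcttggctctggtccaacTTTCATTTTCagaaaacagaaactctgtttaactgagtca
Bst2: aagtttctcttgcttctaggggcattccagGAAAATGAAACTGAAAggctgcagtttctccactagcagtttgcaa

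The Ifit1 stretch lies at chr19:34640755-34640843 on the plus strand, and the Ifit3 stretch at chr19:34583343-34583446 on the plus strand. The Rsad2 stretch lies at chr12:26456533-26456602 and the Bst2 stretch at chr8:71537557-71537632, both on the minus strand. In Ifit1 and Ifit3 the same pair of letter strings, TTTCACTTTC and TTTCAGTTTC, occurred in that order, and in Bst2 2 cores overlapped in a single run of repeats. The first base of the core nearest to the transcript start lay 85 bases before it in Ifit1, 122 in Ifit3, 120 in Rsad2 and 124 in Bst2. The letters of the GAS, TTCNNNGAA, occurred in the Bst2 window, where they overlapped the first ISRE core. They also occurred in 1 of the 2 windows of Ifit2. Over all windows the share was 8.3%, and over all genes with a window it was 9.55%. The windows of Cmpk2 and Xaf1 held neither motif. A match of letters is a description, and no binding was measured.

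The arrays carried the markers of skin. The 10 measured epidermis markers, among them the keratin Krt10 and the suprabasal protein Sbsn, had mean log2 values of 12.41 to 13.18 on the alopecic arrays and 12.33 to 12.98 on the unaffected arrays. Unaffected replicate 3 stood apart: over all genes it accounted for 42.2% of the summed squared distance of arrays from their group mean, and the 21 hair shaft and inner root sheath genes averaged 5.89 there, against 12.30 and 13.01 on the other unaffected arrays. Over all genes 50 passed the test, 48 higher and 2 lower.

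All 10 effectors were higher on every alopecic array than on every unaffected array. Over all genes 6.93% had groups separated in this direction. The median log2 difference of the members was 2.07, or 4.21-fold, beside -0.01 over all genes. In limma's test 2 of the 10, Bst2 and Rtp4, rose past an adjusted p of 0.05, against a background of 0.264% of all genes that rose. All 10 had an unadjusted limma p under 0.05 (8 without alopecic replicate 1, and 6 with array weights), against 4.8% of all genes with such a p and a higher alopecic mean. In bulk skin, more cells that express a gene and more RNA per cell cannot be told apart. With array weights the median was 1.37, and without unaffected replicate 3 it was 2.09 and Bst2 was the 1 member that passed.

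**Figure D1:**
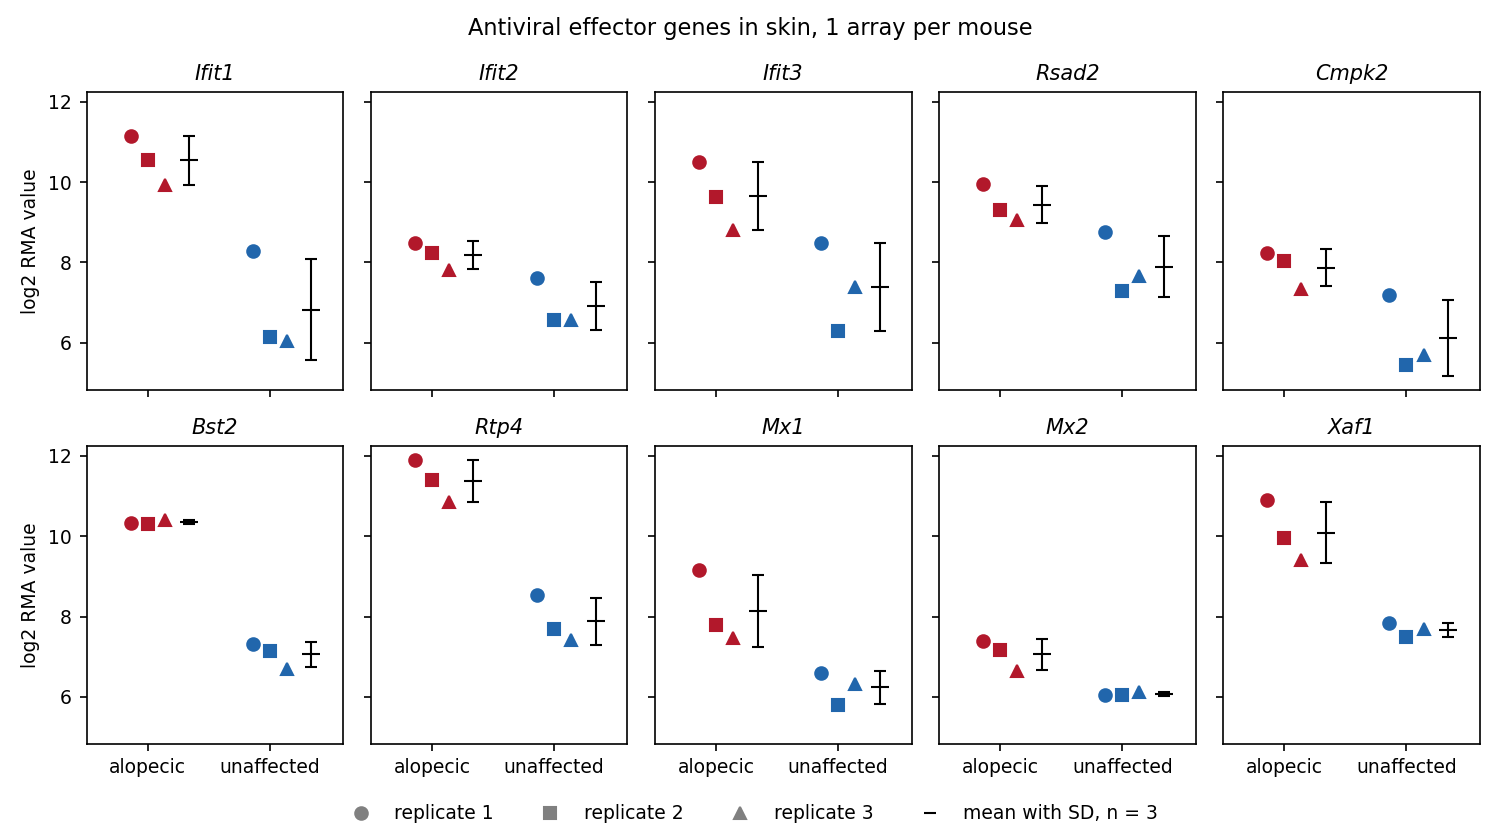
Log2 RMA values of the 10 genes (vertical axes, brightest probe set of each gene) on the 3 alopecic arrays, left and red, and the 3 unaffected arrays, right and blue, with the mean and SD of each group in black. In all 10 panels the alopecic points lie above the unaffected points; the gap is widest for Bst2, whose lowest alopecic value lies 2.99 log2 units above its highest unaffected value, and narrowest for Cmpk2, at 0.16.

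Bst2 encodes tetherin, a membrane protein that holds budding virus particles at the cell surface. Its log2 values were 10.34, 10.30 and 10.41 on the alopecic arrays, against 7.31, 7.15 and 6.71 on the unaffected arrays. The alopecic mice were within 0.11 of each other, the narrowest alopecic range among the members, and the groups were far apart. Bst2 rose by 3.29 (SE 0.18), or 9.80-fold (limma adjusted p = 0.00659). With 1 array left out the call held in 5 of 6 fits and was lost without unaffected replicate 2 (difference 3.34, limma adjusted p = 0.0736). Bst2 is also a surface marker of plasmacytoid dendritic cells in mice. Of the 11 measured markers of those cells none passed limma's test, 1 had an unadjusted p under 0.05, and their median difference was 0.01. The markers went both ways, and 6 of the 11 had a difference above 0. Lair1, the 1 with an unadjusted p under 0.05, was higher in alopecic skin (difference 0.90, SE 0.35). The 2 brightest, Tcf4 and Cox6a2, differed by 0.40 (SE 0.18) and -0.73 (SE 1.18). Cox6a2 ran from 8.66 to 13.25 on the unaffected arrays. Which cells of the skin gave the signals of these 2 genes was not tested. Siglech, a lectin that marks these cells, had log2 values of 5.61 to 5.74 on the alopecic arrays and 5.77 to 6.25 on the unaffected arrays. These lay near or below the array medians of 6.11 to 6.17.

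Rtp4 encodes a receptor transporter protein that helps G protein-coupled receptors reach the surface and also restricts RNA viruses. Its log2 values were 11.90, 11.38 and 10.84 in alopecic skin, against 8.54, 7.68 and 7.41 in unaffected skin. The order of the mice was that of Ifit1, and the groups lay 2.30 apart at their closest points. It rose by 3.50 (SE 0.39), or 11.3-fold (limma adjusted p = 0.0486). That call sat at the threshold: with any 1 array left out the difference stayed between 3.23 and 3.83, and the adjusted p ran from 0.0902 to 0.248. A dimmer second probe set had 6.86, 7.13 and 6.61 in alopecic skin, against 5.16, 5.20 and 5.79 in unaffected skin. Its difference was 1.48 (SE 0.23), or 2.80-fold, and missed the threshold over all probe sets (limma adjusted p = 0.15). The order of the mice differed from that of the brightest probe set, with alopecic replicate 2 and unaffected replicate 3 the highest of their groups.

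The IFIT proteins bind foreign RNA and hinder its translation, and in mice their genes stand together on 1 chromosome, with Ifit2 and Ifit3 as direct neighbours among the protein-coding genes in RefSeq. Ifit1 recognises RNA whose cap lacks the methyl marks of host RNA. It had log2 values of 11.15, 10.54 and 9.93 in alopecic skin, against 8.28, 6.15 and 6.05 in unaffected skin. Ifit1 had the largest difference of the 10 genes, 3.71 (SE 0.68), or 13.1-fold, but it missed the threshold (limma adjusted p = 0.186). Its unaffected arrays spanned 2.23 log2 units, and unaffected replicate 1 was the high one. Without that array the difference was 4.44 (limma adjusted p = 0.0902).

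Ifit3, which binds IFIT1 in human cells and strengthens its hold on RNA, followed the same pattern. It had 10.50, 9.62 and 8.82 in alopecic skin, against 8.49, 6.29 and 7.40 in unaffected skin. The lowest alopecic mouse and the highest unaffected mouse were 0.32 apart. The difference was 2.25 (SE 0.67), or 4.75-fold (limma adjusted p = 0.535). Ifit2, which binds AU-rich RNA, had 8.48, 8.24 and 7.80 in alopecic skin, against 7.61, 6.58 and 6.56 in unaffected skin. Its difference of 1.26 (SE 0.34), or 2.39-fold, was the second smallest of the members and missed the threshold (limma adjusted p = 0.491). The related Ifit1bl1 had 6.29, 5.41 and 5.99 in alopecic skin, against 5.41, 4.75 and 4.56 in unaffected skin, a difference of 0.99 (SE 0.31, limma adjusted p = 0.578). In Ifit1bl2, another relative, the groups overlapped, with 6.43, 6.42 and 6.30 in alopecic skin against 6.15, 6.05 and 6.76 in unaffected skin, a difference of 0.06 (SE 0.21, limma adjusted p = 0.964). Paralogs of this family are alike in sequence, and a probe set may pick up a relative; this was not tested.

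Rsad2 and Cmpk2 are neighbours in the genome and work on nucleotides. Rsad2 encodes viperin, a radical SAM enzyme that turns CTP into an analogue that ends viral RNA chains, and Cmpk2 encodes a mitochondrial kinase that makes nucleoside diphosphates and triphosphates. Rsad2 had 9.94, 9.29 and 9.06 in alopecic skin, against 8.75, 7.28 and 7.66 in unaffected skin. The difference was 1.54 (SE 0.44), or 2.90-fold (limma adjusted p = 0.515). Cmpk2 had 8.23, 8.03 and 7.35 in alopecic skin, against 7.19, 5.45 and 5.70 in unaffected skin. Its difference was 1.76 (SE 0.51), or 3.38-fold (limma adjusted p = 0.526). In both genes unaffected replicate 1 came close to the lowest alopecic mouse, with gaps of 0.31 and 0.16, and neither passed.

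The further probe sets of these genes did not all repeat the brightest one. Of the 2 dimmer Rsad2 probe sets, 1 had 8.08, 7.34 and 6.70 in alopecic skin against 6.91, 4.79 and 4.99 in unaffected skin, a difference of 1.81. The other had 6.98, 5.47 and 4.92 against 6.22, 4.81 and 4.60, a difference of 0.58 with a 95% confidence interval of -1.04 to 2.21. In both of them the groups overlapped, because unaffected replicate 1 exceeded at least 1 alopecic mouse. The second Cmpk2 probe set was flat, at 5.06 to 5.20 in alopecic skin and 5.19 to 5.29 in unaffected skin, and its difference of -0.08 had an interval of -0.33 to 0.17. All of its values lay below the array medians.

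The Mx genes encode dynamin-like GTPases that trap viral components, in mice Mx1 in the nucleus and Mx2 in the cytoplasm. Many laboratory strains carry defective alleles of both, and RefSeq classes Mx1 and Mx2 as transcribed pseudogenes in the C57BL/6J assembly; the alleles of these mice were not analysed here, and an array signal does not show a working protein. Mx1 had 9.15, 7.79 and 7.46 in alopecic skin, against 6.60, 5.79 and 6.32 in unaffected skin. Alopecic replicate 1 was 1.53 above the mean of the other alopecic mice, the largest such excess among the members. The difference was 1.90 (SE 0.48), or 3.72-fold (limma adjusted p = 0.442).

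Mx2 had 7.38, 7.16 and 6.64 in alopecic skin, against 6.05, 6.06 and 6.13 in unaffected skin. The unaffected mice were within 0.08 of each other, close to the array medians. The difference of 0.98 (SE 0.21), or 1.98-fold, was the smallest of the members and missed the threshold (limma adjusted p = 0.291).

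Xaf1 encodes a partner of the caspase inhibitor XIAP that favours cell death. It had 10.89, 9.96 and 9.40 in alopecic skin, against 7.84, 7.49 and 7.69 in unaffected skin. The unaffected mice spanned 0.35 and the alopecic mice 1.50, so the spread lay on the alopecic side. The difference was 2.41 (SE 0.38), or 5.32-fold (limma adjusted p = 0.127). A dimmer probe set of Xaf1 had 5.69, 5.53 and 5.20 in alopecic skin against 4.71, 4.45 and 4.43 in unaffected skin, a difference of 0.94 with an interval of 0.54 to 1.35. Xiap itself differed by 0.02 (SE 0.18, limma adjusted p = 0.984). Of the 9 measured relatives and partners of the members, which include Xiap, Ifit1bl1 and the kinase Cmpk1 (difference 0.31, SE 0.30), none passed limma's test and 1 had an unadjusted p under 0.05, with a median difference of 0.10.

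**Figure D2:**
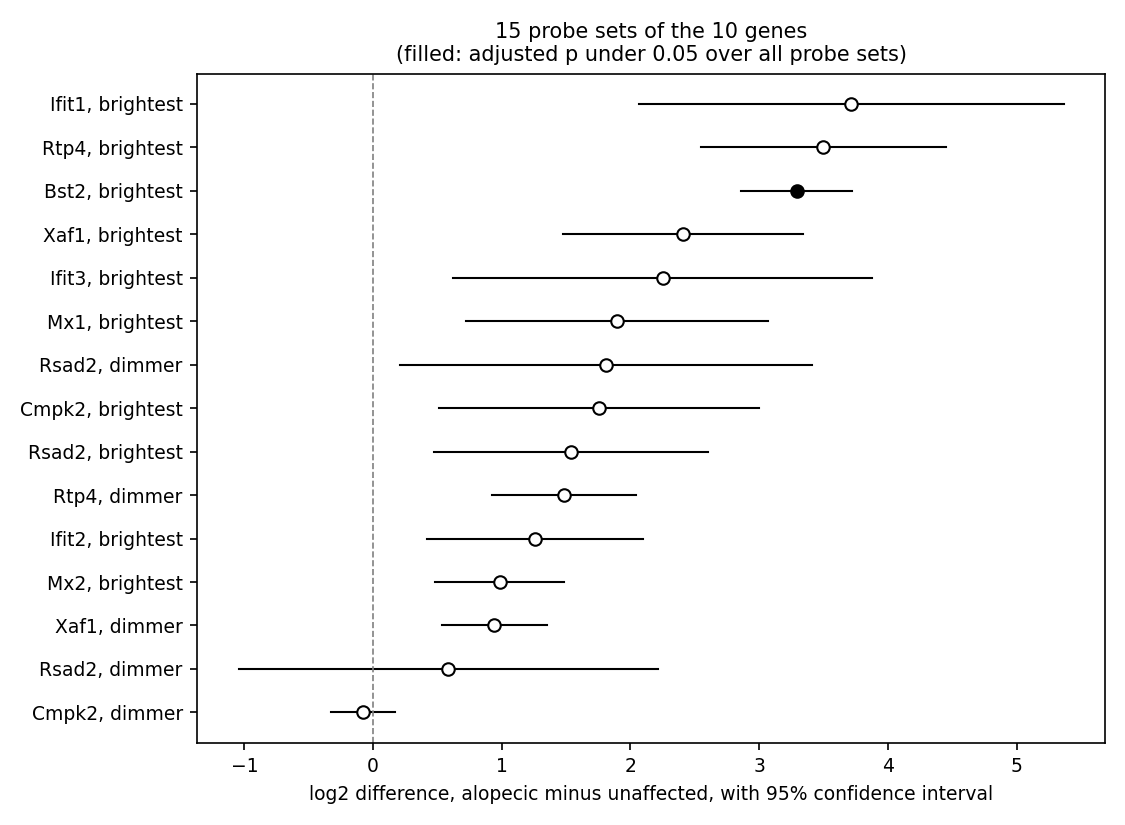
Log2 difference, alopecic minus unaffected, of the 15 probe sets (points) with 95% confidence intervals from limma's fit over all 34945 probe sets (lines). Bst2 is the filled point; 13 of the 15 intervals lie above 0, and the dimmest Rsad2 and the dimmer Cmpk2 probe set cross 0.

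Ordered by the size of the difference, the genes ran from Ifit1, Rtp4 and Bst2 through Xaf1, Ifit3, Mx1, Cmpk2 and Rsad2 to Ifit2 and Mx2. The 95% confidence intervals of neighbours in this order overlapped. The 95% interval of Bst2 in the gene fit, 2.86 to 3.73, lay wholly above those of Rsad2 (0.46 to 2.62), Ifit2 (0.41 to 2.11) and Mx2 (0.48 to 1.49), and overlapped the rest. Differences between members were not tested. Over all 34945 probe sets with 1 symbol, Bst2 was the 1 member probe set of 15 that passed (limma adjusted p = 0.0103), against a background of 0.166% of probe sets that rose. Of the 15, 13 had an unadjusted p under 0.05, against 3.81% of all probe sets with such a p and a higher alopecic mean. With the groups compared by overlap, 12 of the 15 were separated, against 5.79% of all probe sets.

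The members also varied together from mouse to mouse within a group. Each gene was read here from its brightest probe set, and the dimmer one of Rtp4 had another order. In 9 of the 10, all but Bst2, alopecic replicate 1 was the highest and alopecic replicate 3 the lowest of the alopecic arrays, an order that 16.6% of all genes shared. A sign of RNA quality, the log2 excess of the 3′ over the 5′ control probe set, ran in the opposite order, at 0.47, 1.14 and 1.30 for beta-actin and -0.04, 0.44 and 0.52 for Gapdh in alopecic replicates 1, 2 and 3, and its part in the order was not tested. Averaged over the members, after each gene's mean over 6 arrays was subtracted, the alopecic replicates 1, 2 and 3 stood at 1.66, 1.09 and 0.63, against -0.47, -1.54 and -1.37 for the unaffected replicates. Unaffected replicate 1 was the highest unaffected array in 9 of the 10, all but Mx2, against 27.3% of all genes. Other lists shared part of these traits. Of the 41 other interferon-stimulated antiviral genes, alopecic replicate 1 was the highest alopecic array in 35 and alopecic replicate 3 the lowest in 28. Of the 18 genes induced mainly by interferon gamma these counts were 16 and 11. They were 19 and 5 of 21 leukocyte markers, 6 and 6 of 8 fibroblast markers, and 5 and 0 of 21 hair shaft and inner root sheath genes. Of all 18193 genes they were 6025 and 5282. Unaffected replicate 1 was the highest unaffected array in 22 of the 41 and 5 of the 18, the latter near the share of all genes. It was the highest in 2 of the leukocyte, 6 of the fibroblast and 1 of the hair genes.

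**Figure D3:**
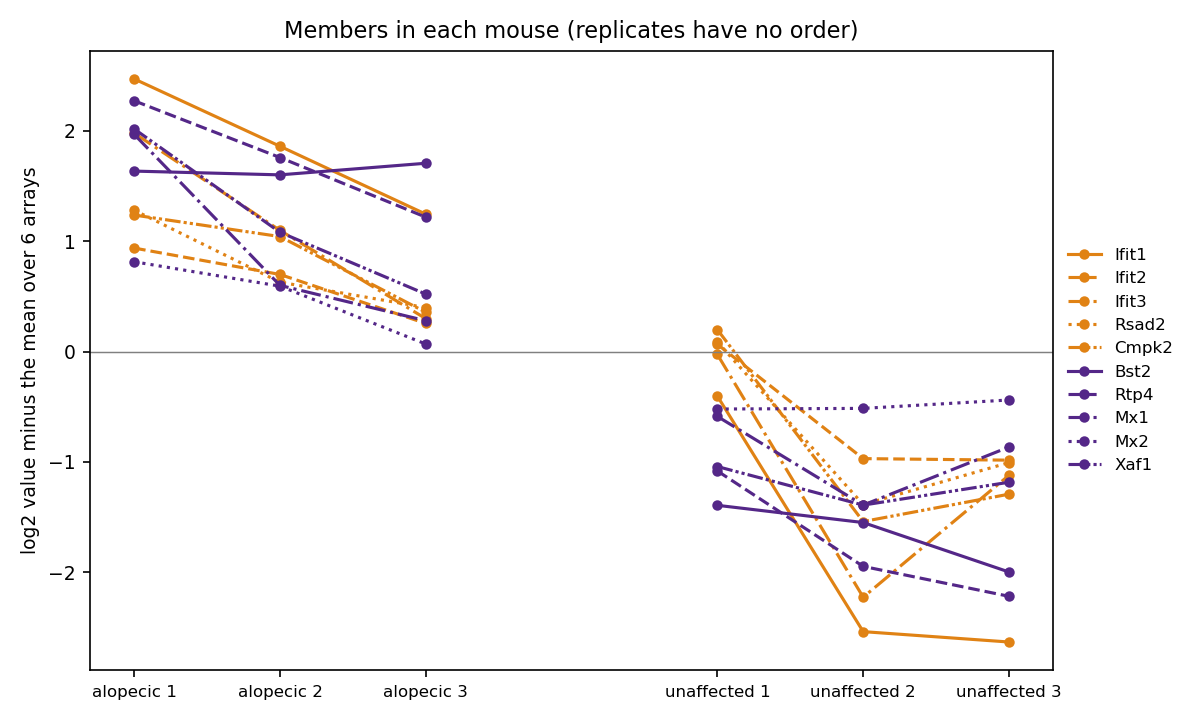
Log2 value of each member minus its mean over the 6 arrays (vertical axis) in each mouse (horizontal axis, alopecic left, replicates without order); orange lines are the IFIT genes, Rsad2 and Cmpk2, purple lines the other members. Unaffected replicate 1 lies near 0 for the orange genes, between -0.40 and 0.20, and between -1.39 and -0.52 for the purple genes.

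The excess of unaffected replicate 1 over its group was uneven among the members. That array exceeded the mean of the other unaffected arrays by 2.18 in Ifit1, 1.65 in Ifit3, 1.61 in Cmpk2, 1.28 in Rsad2 and 1.04 in Ifit2. These 5 genes had an excess of 1 or more, as had 3.58% of all genes. The limit of 1 was not among the rules set for the comparison. The split it makes matches the orange and purple lines and was not tested. In Rtp4 the excess was 0.999, just under that limit, and -0.339 in its dimmer probe set. The excess was 0.54 in Mx1, 0.38 in Bst2, 0.25 in Xaf1 and -0.04 in Mx2. Over the other interferon-stimulated antiviral genes its median was 0.15, and over genes induced mainly by interferon gamma it was -0.06. Other tissue markers differed too: the median excess was 0.93 over 8 fibroblast markers, 3.07 over 21 hair shaft and inner root sheath genes, 0.33 over 10 epidermis markers and -0.02 over 21 leukocyte markers. These values include unaffected replicate 3, which stood apart, and against unaffected replicate 2 alone they were 0.50, -0.68, 0.14 and -0.10, with 0.95 for the members. The 3′ over 5′ excess of beta-actin was 0.50 in unaffected replicate 1, 1.24 in replicate 2 and 0.39 in replicate 3, and that of Gapdh was -0.08, 0.14 and 0.31. The part of these in the excess was not tested.

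Among the alopecic mice, leukocyte markers were also higher in replicate 1. Their mean log2 values were 8.38, 6.96 and 7.25 on the alopecic arrays, against 6.92, 7.19 and 6.52 on the unaffected arrays. None of the 21 measured markers passed limma's test, and their median difference was 0.52. Of the 21, 8 had an unadjusted limma p under 0.05 and a higher alopecic mean, against 4.8% of all genes. Cd8a, a co-receptor of cytotoxic T cells, had 8.59, 7.39 and 7.42 in alopecic skin, against 6.13, 5.79 and 6.20 in unaffected skin (limma adjusted p = 0.266), while the B cell genes Cd79a and Ms4a1 stayed under 5 on all arrays. Without alopecic replicate 1 the median difference of the leukocyte markers was 0.11 and 1 of them passed. The median of the 10 effectors was then 1.70. The leukocyte median was taken over a mixed list with flat B cell genes, so it does not describe the T cell markers. Without unaffected replicate 3 the leukocyte median was 0.30. In 9 of the 21 markers every alopecic array lay above every unaffected array, as it did in the members, against 6.93% of all genes. These were Cd3d, Cd3e and Cd3g of the T cell receptor complex, Cd8a, Cd8b1, Nkg7 and the general leukocyte gene Ptprc. The rest of the 9 were the myeloid gene Itgax, with a difference of 1.66 (SE 0.525), and the natural killer cell gene Ncr1. Ncr1 was dim, at 4.32 to 4.74 on all arrays. In each of these 9 markers alopecic replicate 1 was the highest alopecic array, so the groups stayed separated without it. The lowest alopecic value exceeded the highest unaffected value by 1.577 in Nkg7, 1.255 in Cd3d, 1.186 in Cd8a and 1.138 in Cd8b1. The smallest such gap was 0.026, in Ncr1. In 1 marker, Cd4, every alopecic array lay below every unaffected array, at 6.12, 6.05 and 6.13 against 6.21, 6.43 and 6.15. Over all genes 1114 of 18193 were separated in that direction. The Cd4 difference was -0.165 (SE 0.12), with values near the array medians of 6.11 to 6.17. The groups overlapped in the macrophage genes Adgre1 and Cd68 and the mast cell genes Cpa3 and Mcpt4. They also overlapped in the 2 brightest markers, Csf1r (difference 0.10, SE 0.41) and S100a8 (difference 0.905, SE 0.61). The part of leukocyte content in the members' differences was not tested.

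The rest of the pathway was read from gene lists. Of the 9 measured genes for interferons, all of type I, none passed limma's test, 1 had an unadjusted p under 0.05 and the median difference was -0.09. Ifnb1, which encodes interferon beta, had 4.68 to 4.92 in alopecic skin and 4.73 to 4.97 in unaffected skin, and the other genes of the list except Ifnz also lay below the array medians. Ifnz had 7.21, 7.31 and 7.71 in alopecic skin, against 6.58, 7.12 and 6.87 in unaffected skin (difference 0.56, limma adjusted p = 0.642). Ifnz was the 1 gene of the list with an unadjusted limma p under 0.05. The signals of the other listed genes were too dim to show whether their RNAs were present.

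Of the 17 measured receptor and signalling genes 2 rose, the transcription factors Irf1 and Irf7, against 0.264% of all genes. The median difference was 0.34. With 1 array left out 0 to 2 passed. Irf7, which drives further type I interferon production, rose by 2.35 (SE 0.25, limma adjusted p = 0.0377), and Irf1, a rapid target of interferon gamma, by 2.93 (SE 0.15, limma adjusted p = 0.00607). The ISGF3 subunits Stat2 and Irf9 differed by 2.19 (SE 0.37, limma adjusted p = 0.146) and 1.78 (SE 0.25, limma adjusted p = 0.0959). The receptor chains Ifnar1, at 0.17 (SE 0.14), and Ifngr1, at -0.39 (SE 0.30), missed the threshold as well.

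Of 41 other interferon-stimulated antiviral genes 13 rose and none fell, against 0.264% of all genes that rose. In 35 of them every alopecic array lay above every unaffected array, against 6.93% of all genes. The median difference was 1.59, or 3.02-fold. With any 1 array left out 0 to 8 passed. Oasl2, of the oligoadenylate synthetase family, rose by 4.53 (SE 0.26, limma adjusted p = 0.00773), Oas1a, which makes the messenger that activates RNase L, by 3.11 (SE 0.28, limma adjusted p = 0.0229), Parp14 by 2.82 (SE 0.20, limma adjusted p = 0.013) and the helicase Dhx58 by 2.70 (SE 0.28, limma adjusted p = 0.0377). Genes induced mainly by interferon gamma had a median of 3.75, or 13.5-fold, with 12 of 18 risen, and 4 to 11 of them passed with 1 array left out. The median of the 10 effectors, 2.07, lay between those of these 2 lists, and this order was not tested.

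**Figure D4:**
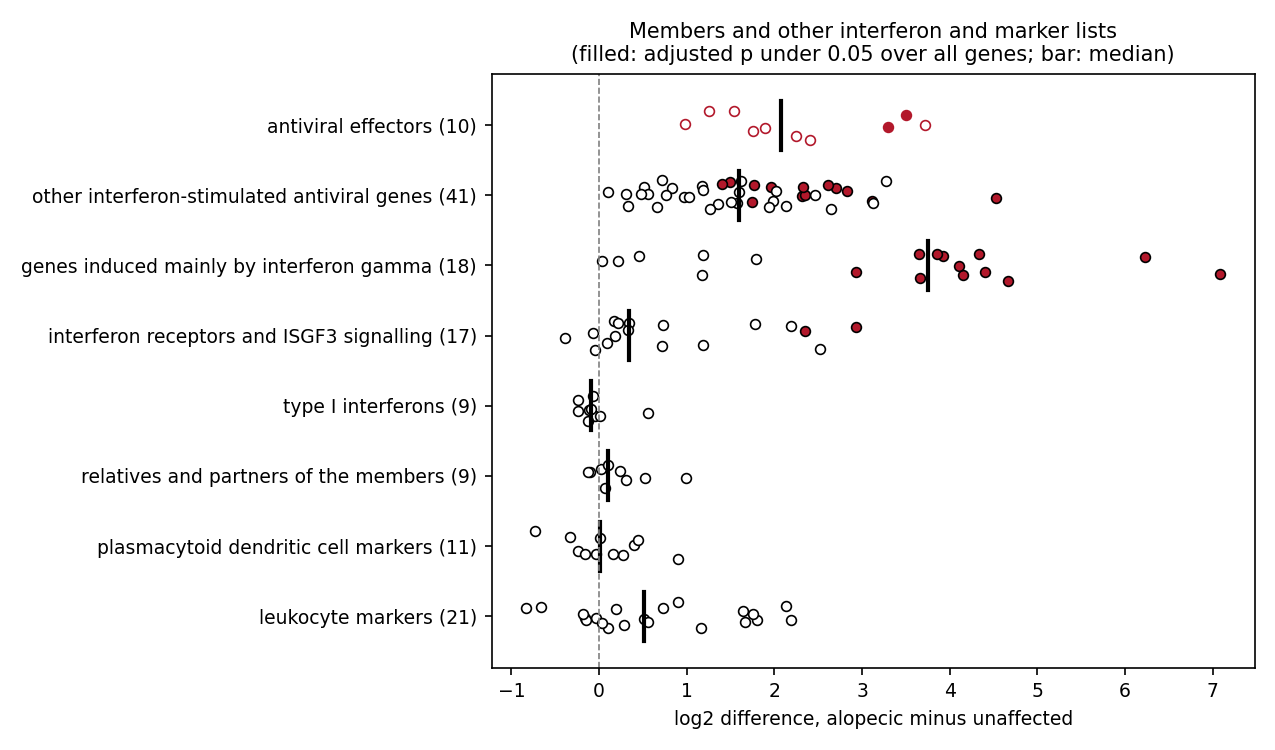
Log2 difference, alopecic minus unaffected, of each measured gene (points, with vertical scatter for legibility) in the members and 7 other lists, with list sizes in brackets, medians as bars, and genes past an adjusted p of 0.05 filled. The 10 effectors run from 0.98 to 3.71, while the 9 type I interferon genes run from -0.25 to 0.56.

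The genes whose profile over the 6 arrays lay nearest to the mean profile of the members were sought by the root mean square distance of centred log2 values. They were Lipg at 0.18, Stat2 at 0.21, Samd9l at 0.24, Usp18 at 0.26 and H2-T24 at 0.27 log2 units. The members themselves lay between 0.30, for Xaf1, and 0.83, for Ifit1. The 5 genes were picked as the smallest distances among all other genes, so their lower distances follow from that choice. Lipg, which encodes endothelial lipase, had 8.26, 7.55 and 7.12 in alopecic skin, against 6.23, 5.45 and 5.18 in unaffected skin. Usp18, which removes ISG15 and dampens interferon receptor signals, had 10.51, 9.86 and 9.42, against 7.64, 7.32 and 7.28 in unaffected skin.

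**Figure D5:**
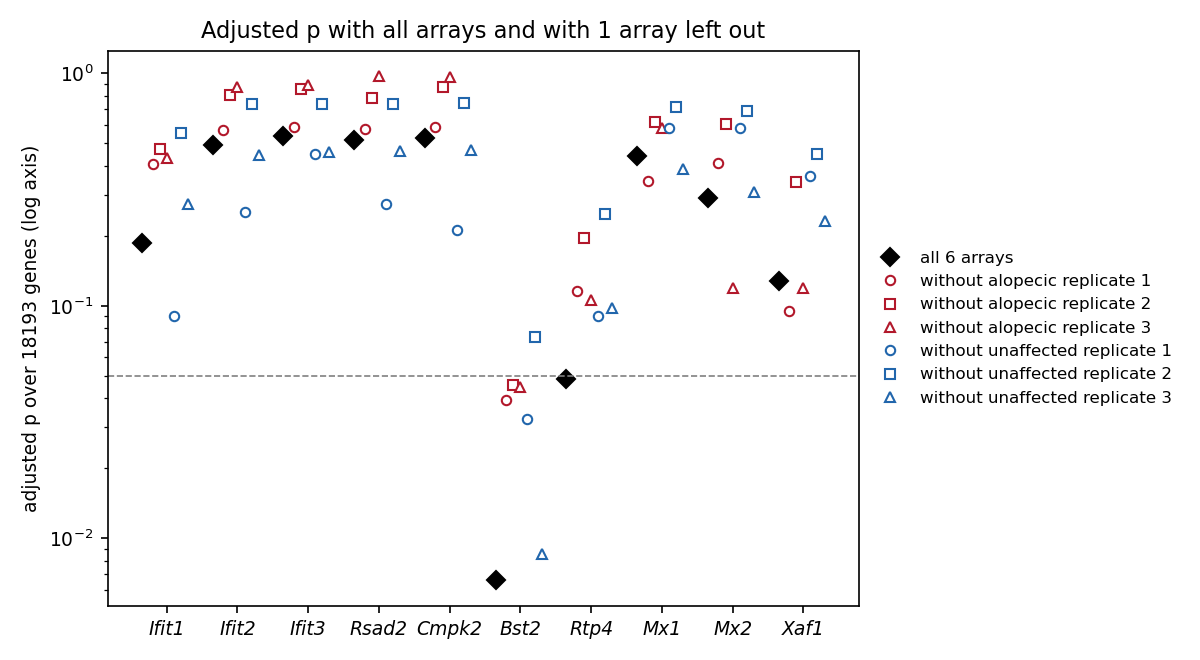
Limma adjusted p over 18193 genes (log axis) of each member with all 6 arrays (black diamonds) and with 1 alopecic (red) or 1 unaffected (blue) array left out; the dashed line is 0.05. Bst2 lies below the line in all but 1 case, Rtp4 only with all 6 arrays, and the other 8 members lie above it throughout.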

How the data were processed

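Skin RNA of 6 C3H/HeJ mice was labelled with a 3′ IVT Express kit, per the labels' protocols. The authors deposited log2 values, and the submitters' processing notes name RMA; no version is named there. The 45101 probe sets, with 64 controls, ran from 3.07 to 14.92 and were used as deposited. Platform symbols were updated through RefSeq gene identifiers (34741 of 34945 matched). Each gene was read from its probe set with the highest mean, without a filter on dim signals. Groups were compared with limma 3.58.1 in R 4.3.3 (lmFit, eBayes, two-sided, Benjamini-Hochberg over all 18193 genes), and probe sets in a second fit; the code was tested on simulated data. Errors are standard errors of the fit. With 3 arrays in each group, precision is set by their small number.

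The members and lists were chosen with earlier results of these data known. Named are all members, the 5 nearest profiles and, of each list, up to 4 risen or fallen genes (otherwise the 2 brightest). Of the genes that this rule gives, Ifna9, Krt25, Tchh, Col1a2 and Dcn are not named above. Ifit1bl1, Ifit1bl2, Siglech, Lair1, Ifnb1, Stat2, Irf9, Ifnar1 and Ifngr1 were added after their values were seen. So were the leukocyte markers Cd3d, Cd3e, Cd3g, Cd4, Cd8a, Cd8b1, Nkg7, Ptprc, Itgax, Ncr1, Adgre1, Cd68, Cpa3, Mcpt4, Cd79a and Ms4a1. Alternatives were another probe set rule, variance prior, dim filter, normalization, array weights, replicate block, symbols and single arrays left out.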

Additional observations from a re-analysis of the deposited data

How the results depend on the processing

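Each member kept its higher mean in alopecic skin in every alternative in which it was measured. With 1 array left out, 0 to 1 members passed, 4 to 39 of all genes, 4 to 18 listed genes, 0 to 8 other antiviral genes and 0 to 1 member probe sets, against 2, 50, 26, 13 and 1 with all arrays; the median of the members ran from 1.686 to 2.446. No member passed without unaffected replicate 2 in limma, where all 10 had an unadjusted p under 0.05, as in the other fits with 1 array left out except that without alopecic replicate 1 (8). Array weights gave 139 genes, 21 other antiviral genes, 3 member probe sets and a median of 1.371. Leaving out dim genes removed 4 members, and the other 6 had a median of 2.852. With a robust prior, or with all probe sets tested, 1 member passed, since Rtp4 stood at an adjusted p of 0.0529 and 0.0589; with a trended prior 2 member probe sets passed. Same-numbered mice did not deviate together (correlations -0.132, -0.197 and -0.33 over genes), so the numbers were not taken as pairs; limma with the replicate block called 0 genes, 0 members, 0 listed genes, 0 other antiviral genes and 0 member probe sets, with 873, 10, 66, 33 and 14 at an unadjusted p under 0.05. The cause of these moves was not tested.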
